A study of Mus musculus with 4 samples.

Results

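The genes described here encode the heat shock proteins, the DnaJ cochaperones and the heat shock factors of the mouse heart. They were chosen by symbol alone: every gene of the deposited table whose name places it among the Hspa and Hspb genes, the Hsp90 genes, Hspd1, Hspe1, Hsph1, the Hsf genes or the Dnaja, Dnajb and Dnajc genes. The rule took 77 of 46603 listed genes, and no measured value entered it. Of these 77 genes, 76 had a read in at least 1 library and 66 averaged 10 or more reads over the 4 libraries, the minimum set for comparing a gene. The 11 genes below it (Dnajb3, Dnajb7, Dnajb8, Dnajb13, Dnajc5b, Dnajc5g, Dnajc6, Dnajc22, Hsf3, Hsf5 and Hspb9) had between 0 and 12 reads in any library, and Dnajc5g had 0 reads in all 4. A count of 0 allows up to 3 reads, which is 0.117 to 0.16 CPM in these libraries, where CPM sets the total reads of each library to 1000000.

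Ventricular RNA came from C57Bl6/J mice that were 8 to 12 weeks old and either wild type (WT) or null for P2Y6, a G protein-coupled receptor for the nucleotide UDP encoded by P2ry6 (KO). The WT isoproterenol and KO isoproterenol groups had been injected intraperitoneally each day for 7 days with 50 mg/kg/day of isoproterenol, a beta-adrenergic agonist that enlarges the heart, and the WT saline and KO saline groups with saline. Each of the 4 groups was represented by 1 library, and the labels do not say how many hearts stood behind it. The null allele is described no further than by its name, and it is not stated to be limited to heart cells.

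Chaperones bind unfolded or partly folded proteins and keep them from aggregating. Hsp70 proteins do so in cycles of ATP hydrolysis that DnaJ proteins start and direct, Hsp90 proteins act later on a narrower range of clients, small heat shock proteins hold unfolding proteins without using ATP, and the Hspd1 and Hspe1 chaperonin folds proteins inside mitochondria. In cardiac muscle the small heat shock proteins are abundant and associate with the contractile and cytoskeletal filaments, and heat shock factors such as Hsf1 drive the stress-induced members through heat shock elements in their promoters.

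The libraries held 18771198 to 25637369 reads. P2ry6 was at 5.11 and 5.89 CPM in the WT saline and WT isoproterenol libraries and at 0.566 and 0.533 CPM in the KO saline and KO isoproterenol libraries, which fits the genotype labels. The 6 cardiomyocyte markers (Myh6, Tnnt2, Tnni3, Actn2, Ryr2 and Myl2) summed to 40010 to 52653 CPM, and Myh4, a fast skeletal muscle myosin, was at 0 in all 4 libraries. The KO isoproterenol library stood apart from the other 3 in its marker sums. Cardiomyocyte markers summed to 40010 CPM there against 47802 to 52653 CPM. Fibroblast markers summed to 1408 CPM against 706 to 857 CPM, and macrophage markers to 704 CPM against 323 to 345 CPM. Single genes differed: Myh6, Myl2 and Tnni3 were lowest in KO isoproterenol, Tnnt2 lay between the other libraries, and Actn2 and Ryr2 were highest (2063 and 1445 CPM). Of the macrophage markers only Cd163 was lowest there (21.8 CPM), and Lyz2 made up 445 of the 704 CPM. Endothelial markers summed to 676 to 760 CPM, with no separation of the KO isoproterenol library. The 3 atrial markers (Myl7, Myl4 and Sln) summed to 182, 137, 113 and 180 CPM in the saline and isoproterenol libraries of WT and then of KO. With TMM scaling, explained below, Myl4 was 1.62-fold lower in KO than in WT under saline, and 1.68-fold higher under isoproterenol than under saline in KO. In RNA of whole ventricle, fewer cells of a type and less RNA per cell cannot be told apart.

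A fold here compares the reads of a gene in 2 libraries after TMM, a scaling that assumes no change for most genes, and its 95% interval covers counting error only. The rule for counting a gene as higher or lower was an interval wholly beyond 1.5-fold. Because each group had 1 library, nothing checks these ratios against replicates: they compare libraries, not conditions. The background of a comparison is the share of all 14301 compared genes that met the same rule.

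The small heat shock proteins carried the most reads of the families, and Hspb7 made up most of their sum in each library. The 8 genes summed to 3276 CPM in WT saline, 4825 CPM in WT isoproterenol, 3686 CPM in KO saline and 5347 CPM in KO isoproterenol, of which Hspb7 alone had 1865, 3124, 2097 and 3536 CPM. Hspb8 and Hspb1 were instead lowest in WT isoproterenol. All 77 genes together summed to 9703, 10356, 10282 and 11537 CPM in the same order. The 14 Hsp70 and Hsp110 genes summed to 2560, 2132, 2689 and 2453 CPM, and the 3 Hsp90 genes to 1522, 1271, 1594 and 1543 CPM, and the Hsp90 sum was lowest in the WT isoproterenol library. The chaperonin genes Hspd1 and Hspe1 summed to 453, 387, 457 and 309 CPM and had their lowest sum in the KO isoproterenol library.

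Levels can be ranked between genes only per length, as CPM per kb of annotated exon. Hspb7, a small heat shock protein of heart and skeletal muscle, had the highest mean over the libraries, with 674, 1128, 757 and 1277 CPM per kb in the saline and isoproterenol libraries of WT and then of KO. It was above every other chaperone gene in each of the 4 libraries. The constitutive cytosolic Hsp90 gene Hsp90ab1 followed with 414, 352, 427 and 387 CPM per kb, and Hspb6, a small heat shock protein also called Hsp20, with 301, 454, 362 and 382 CPM per kb. These genes changed places between libraries: Hspb6 was above Hsp90ab1 in the WT isoproterenol library and below it in the other 3. Hspb8, a small heat shock protein that works with the cochaperone Bag3, was at 287, 266, 301 and 357 CPM per kb. The constitutive cytosolic Hsp70 gene Hspa8 was at 206, 168, 220.5 and 216 CPM per kb, and the mitochondrial Hsp70 gene Hspa9 at 178, 162, 187 and 143 CPM per kb. The chaperonin gene Hspd1 was at 146, 119, 149.5 and 93.7 CPM per kb. Hspb1, the stress-inducible small heat shock protein also called Hsp25, was at 94.6, 71.0, 115 and 154 CPM per kb, and Hspa5, the ER Hsp70 also called BiP, at 113, 72.6, 116 and 102 CPM per kb. The highest DnaJ gene was Dnaja2, a cytosolic class A partner of Hspa8, at 78.5, 73.8, 80.7 and 73.2 CPM per kb. The classical heat-inducible Hsp70 genes Hspa1a and Hspa1b were far below these, with 0.22 to 0.521 and 0.59 to 1.14 CPM per kb.

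**Figure D1:**
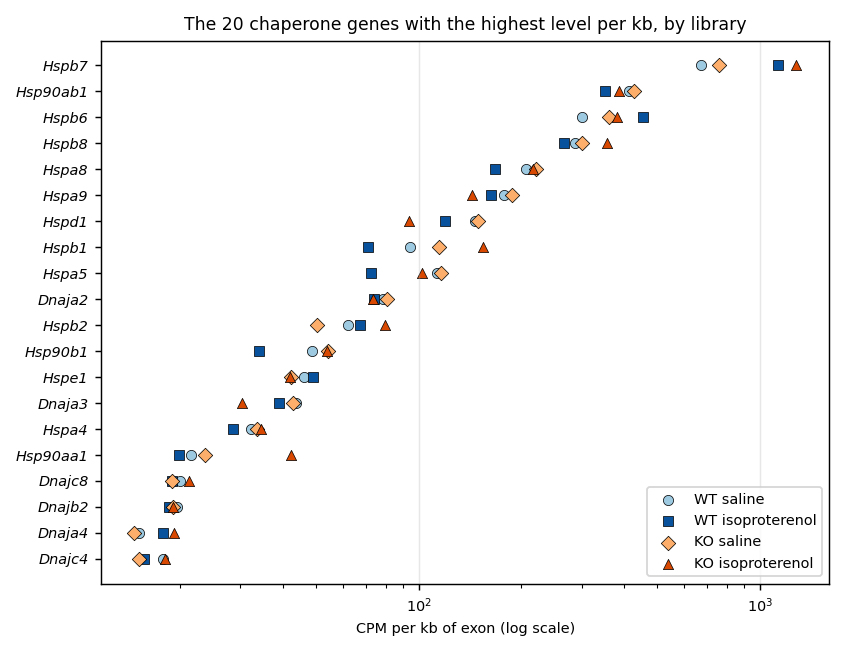
Level of the 20 chaperone genes with the highest mean, as CPM per kb of exon on a log axis, with 1 symbol for each of the 4 libraries. Hspb7 lies to the right of all others, with both isoproterenol libraries (1128 and 1277 CPM per kb) above both saline libraries (674 and 757 CPM per kb), while Hsp90aa1 and Hspd1 each show the KO isoproterenol library apart from the other 3.

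In the WT hearts, 2 of 66 genes were counted as higher under isoproterenol, against a background of 0.86% of all genes, and 0 as lower, against 0.797%. Both were small heat shock proteins. Hspb7 (chr4:141420779-141425311, + strand, GRCm38 positions here and below from GENCODE M21) was at 1865 CPM in the saline and 3124 CPM in the isoproterenol library, 1.77-fold higher (interval 1.75 to 1.79). Hspb6 (chr7:30552178-30555443, + strand) was at 691 and 1043 CPM, 1.59-fold higher (1.56 to 1.63). The median log2 ratio of the 66 genes was -0.07 beside 0.00 for all genes, and single ratios ran from -0.55 to 0.82. Hspa5 had the lowest ratio, 1.47-fold lower (1.42 to 1.51), which did not meet the rule. When the libraries were scaled by their total reads only, 1 gene was higher (Hspb7) and 1 lower (Hspa5), with backgrounds of 0.692% and 1.01%.

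In the KO hearts, 2 of 66 genes were counted as higher under isoproterenol and 4 as lower, where the backgrounds were 7.09% and 4.22%. The higher genes were Hspa1l, an Hsp70 gene best known from testis, and Dnajc10, an ER DnaJ protein with thioredoxin domains that reduces disulfide bonds. The lower genes were Hspd1, the mitochondrial DnaJ genes Dnaja3 and Dnajc28, and Dnajb5, a class B DnaJ gene related to Dnajb1. The median log2 ratio was -0.08, within a range of -0.93 to 1.46. Total-read scaling set the median of all genes to 0.18 in this comparison. With it 4 genes were higher (Hspb7, Hspa1l, Hsp90aa1 and Dnajc10) and 2 lower (Hspd1 and Dnajc28), with backgrounds of 10.1% and 2.5%, and the median of the 66 genes turned to 0.10.

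Between the genotypes under saline, 0 of 66 genes were counted in either direction, against backgrounds of 0.273% higher and 0.217% lower (0.489% together), and log2 ratios of KO over WT ran from -0.77 (Hspa1a, with 30 and 15 reads) to 0.33 (Hspb1). Under isoproterenol, 3 of 66 genes were counted as higher in KO (Hspb1, Hspa1l and Hsp90aa1) and 1 as lower (Dnajc28), against backgrounds of 4.2% and 1.8%. With total-read scaling, 4 were higher (Hsp90b1 in addition) and 0 lower, with backgrounds of 7.3% and 0.783%. The KO isoproterenol library enters both this comparison and the KO response, so the comparisons are not independent of each other.

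The difference of the responses, the log2 ratio in KO minus that in WT, lay wholly beyond 1.5-fold for 3 genes. It was higher for Hspa1l, at 1.93 (0.68 to 3.18), and lower for Hspb6, at -0.78 (-0.82 to -0.73), and for Dnajc28, at -0.87 (-1.06 to -0.69). The backgrounds were 3.83% higher and 1.73% lower. Of the 66 genes, 27 had ratios below 1 in both genotypes and 14 had ratios above 1 in both. A further 16 were above 1 only in KO and 9 only in WT. Total-read scaling set the median difference of all genes to 0.26 and gave 5 higher (Hspb1, Hspa1l, Hsp90aa1, Dnajc3 and Dnajc10) and 0 lower genes, with backgrounds of 7.43% and 0.594%.

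**Figure D2:**
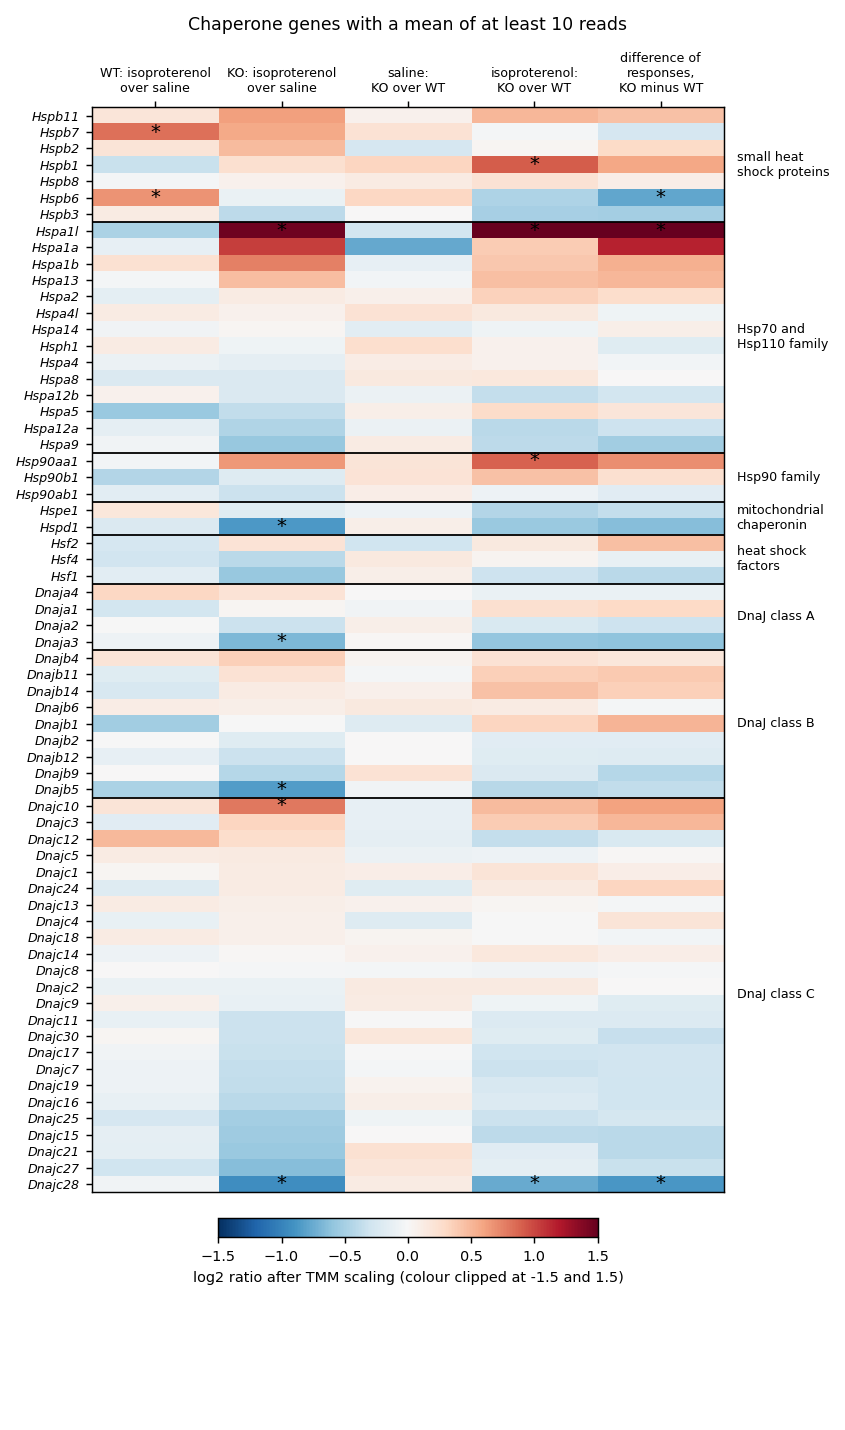
Log2 ratio after TMM scaling of the 66 compared genes (rows, by family and sorted within it by the KO response) in the 4 library comparisons and their difference of responses (columns). Red is higher and blue lower, with the colour clipped at 1.5, and a star marks an interval wholly beyond 1.5-fold. The saline column has 0 stars, the WT column 2 and the KO column 6.

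Among the small heat shock proteins, Hspb7 and Hspb6 were both higher under isoproterenol in WT but parted in KO. Hspb7 was at 2097 CPM in KO saline and 3536 CPM in KO isoproterenol, 1.49-fold higher (1.47 to 1.5), which just missed the rule and met it with total-read scaling. Hspb6 was at 831 and 879 CPM in the same libraries. Its log2 ratio in KO was -0.10 (-0.13 to -0.07), and 0.08 with total-read scaling, so its direction in KO depended on the scaling. Within a library, where no scaling enters, there were 2.70 and 2.99 Hspb7 reads per Hspb6 read in WT saline and WT isoproterenol, and 2.52 and 4.02 in KO saline and KO isoproterenol. The KO isoproterenol library had the highest ratio, and its interval (3.96 to 4.09) did not overlap those of the other 3. Set against the constitutive Hspa8, Hspb7 was highest in WT isoproterenol, with 4.33 reads per Hspa8 read, against 3.81 in KO isoproterenol, 2.11 in WT saline and 2.21 in KO saline.

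Hspb1 (chr5:135887919-135889563, + strand) behaved unlike both. It was at 97.5, 73.2, 118 and 159 CPM in WT (saline, then isoproterenol) and KO (saline, then isoproterenol), so that the WT isoproterenol library was the lowest and the KO isoproterenol library the highest. KO was 1.87-fold higher (1.76 to 1.99) than WT under isoproterenol and 1.25-fold higher (1.19 to 1.32) under saline. Of the 50-base stretches of its transcripts, 48.8% also occur in other genes, mainly the pseudogene Hsp25-ps1, so the authors' counting may have left some reads out. Hspb8 had log2 ratios of -0.03 in WT and 0.06 in KO, although it was the most abundant small heat shock protein after Hspb7 and Hspb6. Hspb2, which lies head to head with the small heat shock gene Cryab at a distance of 1029 bases, was at 51.8, 56.0, 42.1 and 66.3 CPM, and 30.2% of its exon sequence is overlapped by Cryab on the other strand. Hspb3 and Hspb11 had 6.07 to 7.43 and 2.85 to 5.01 CPM, and neither met the rule in any comparison.

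Among the Hsp70 genes, Hspa1l was the only one to meet the rule with TMM scaling, and it rested on few reads. It had 24 reads in WT saline, 13 in WT isoproterenol, 17 in KO saline and 44 in KO isoproterenol, or 0.936, 0.627, 0.74 and 2.34 CPM. The KO isoproterenol library was the highest, 2.74-fold above KO saline (1.56 to 5.21) and 3.14-fold above WT isoproterenol (1.71 to 6.53). Hspa1l (chr17:34972703-34979285, + strand) starts 547 bases from Hspa1a and runs the other way, and 71.9% of its exon sequence is overlapped on the other strand by Gm10501. The library kit keeps strand per the labels, but the strand setting of the counting is not given in the sources used here, so reads of Gm10501 may be included.

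The neighbouring Hspa1a and Hspa1b, 12918 bases apart, encode the heat-inducible Hsp70 and have longest reading frames that are 98.1% identical, so reads of the pair can be exchanged or dropped. Hspa1a had 30, 21, 15 and 29 reads and Hspa1b 48, 43, 38 and 60 reads in the saline and isoproterenol libraries of WT and then of KO. Their log2 ratios in KO were 1.04 (0.11 to 2.06) and 0.76 (0.16 to 1.39), and in WT -0.12 (-1.01 to 0.72) and 0.23 (-0.40 to 0.85). At this depth a 1.5-fold difference could not be resolved for either gene. The constitutive Hspa8 was at 885, 721, 948 and 929 CPM, with log2 ratios of -0.22 in WT and -0.21 in KO, and a difference of responses of 0.00 (-0.04 to 0.05). Hspa4 and Hsph1, Hsp110 proteins that exchange the nucleotide of Hsp70, had log2 ratios between -0.14 and 0.12 in both responses.

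The cytosolic Hsp90 genes separated in the KO isoproterenol library. Hsp90aa1 (chr12:110690605-110702728, - strand), the stress-inducible form, was at 84.5, 78.0, 93.1 and 166 CPM in WT (saline, then isoproterenol) and KO (saline, then isoproterenol), so that 1 library stood above the other 3. It was 1.84-fold higher (1.73 to 1.96) in KO than in WT under isoproterenol and 1.58-fold higher (1.49 to 1.67) under isoproterenol than under saline in KO. The second value missed the rule and met it with total-read scaling. Hsp90ab1 was at 1241, 1056, 1282 and 1160 CPM, 1.11-fold lower in WT and 1.25-fold lower in KO under isoproterenol. There were 0.0681, 0.0739 and 0.0726 Hsp90aa1 reads per Hsp90ab1 read in WT saline, WT isoproterenol and KO saline, and 0.143 (0.138 to 0.149) in KO isoproterenol. Of the 50-base stretches of Hsp90aa1, 47.5% occur in other genes, mainly Gm12346.

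**Figure D3:**
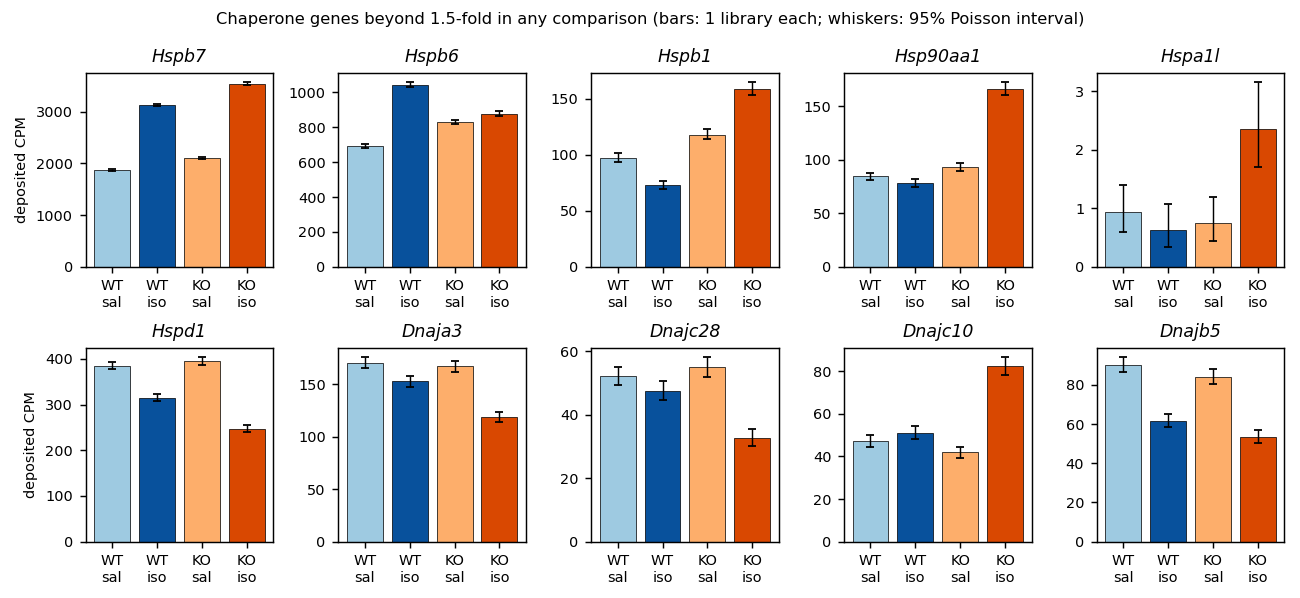
Deposited CPM of the 10 chaperone genes that met the 1.5-fold rule in at least 1 comparison, with 1 bar for each library (sal, saline; iso, isoproterenol) and whiskers for the 95% Poisson interval of its reads, on linear axes that start at 0. Hspb7 is high in both isoproterenol libraries (3124 and 3536 CPM), Hspb6 is highest in WT isoproterenol (1043 CPM), and Hsp90aa1, Hspa1l and Dnajc10 are highest, and Hspd1, Dnaja3 and Dnajc28 lowest, in KO isoproterenol.

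A list of 11 cytosolic genes taken as heat-inducible held Hspa1a, Hspa1b, Hsph1, Hspb1, Hsp90aa1, Dnaja1, Dnaja4, Dnajb1 and Dnajb4, and the constitutive Hspa8 and Hsp90ab1. Of these 11 genes, 0 were counted in the WT or KO response. Of all genes 0.86% were higher and 0.797% lower in WT, and 7.09% and 4.22% in KO. In KO against WT under isoproterenol 2 (Hspb1 and Hsp90aa1) were counted, where 4.2% of all genes were higher. The median log2 ratio of the 11 genes was -0.12 in WT and 0.21 in KO, beside 0.00 for all genes in both. With total-read scaling 1 of the 11 (Hsp90aa1) was counted as higher in the KO response, against 10.1% of all genes, and the median was 0.39 beside 0.18 for all genes. Dnajb1, the DnaJ partner of inducible Hsp70, was at 19.0, 12.5, 16.0 and 18.1 CPM, with a log2 ratio of -0.52 (-0.74 to -0.30) in WT and -0.01 (-0.22 to 0.21) in KO. Dnajb4 and Dnaja4 had ratios above 1 in both genotypes, 0.19 and 0.31 in WT and 0.36 and 0.21 in KO on the log2 scale. Hsf1, the main transcription factor of the heat shock response, was at 35.6, 30.1, 36.6 and 28.1 CPM, with log2 ratios of -0.16 in WT and -0.57 (-0.73 to -0.41) in KO. Hsf2 and Hsf4 had 12.8 to 16.7 and 3.04 to 4.22 CPM, and none of the 3 factors met the rule.

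Most mitochondrial chaperones had ratios below 1 in the KO response. Of 10 genes, 3 (Hspd1, Dnaja3 and Dnajc28) were counted as lower in the KO response and 0 as higher, against backgrounds of 4.22% and 7.09%. An interval wholly below no change was found for 9 genes, and the median log2 ratio was -0.45. Across all genes, 27.6% had an interval wholly below no change in that comparison and the median was 0.00. Chaperone genes have more reads and so narrower intervals than most. In WT 8 of the 10 genes also had ratios below 1, and 5 had an interval wholly below no change, beside 2305 of all 14301 genes. The median of the 10 genes was -0.07 in WT, and in KO against WT it was 0.04 under saline and -0.40 under isoproterenol. With total-read scaling the KO median was -0.27 beside 0.18 for all genes, and 2 genes (Hspd1 and Dnajc28) were counted as lower, against 2.5% of all genes.

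Hspd1 (chr1:55077835-55088243, - strand), the large chaperonin subunit, was at 385, 315, 395 and 248 CPM in the saline and isoproterenol libraries of WT and then of KO. It was 1.81-fold lower (1.75 to 1.88) under isoproterenol in KO and 1.16-fold lower (1.12 to 1.2) in WT. Its lid subunit Hspe1 was at 67.9, 72.2, 62.1 and 62.0 CPM, with log2 ratios of 0.17 in WT and -0.19 in KO. There were thus 5.67 Hspd1 reads per Hspe1 read in WT saline, 4.35 in WT isoproterenol, 6.36 in KO saline and 3.99 in KO isoproterenol, lower under isoproterenol in both genotypes. Of the 50-base stretches of Hspd1, 39.7% also occur in other genes, mainly Hspd1-ps3. Dnaja3 (chr16:4639989-4707695, + strand), the class A DnaJ partner of Hspa9, was at 170, 153, 167 and 118 CPM and 1.6-fold lower (1.52 to 1.69) in KO, a call that total-read scaling removed. Dnajc28 (chr16:91614254-91619026, - strand), whose function is little known, was at 52.2, 47.4, 54.9 and 32.7 CPM and 1.91-fold lower (1.73 to 2.1) in KO. Hspa9 itself was at 766, 700, 806 and 616 CPM, 1.49-fold lower (1.45 to 1.52) in KO, just short of the rule. The other 5 mitochondrial DnaJ genes (Dnajc4, Dnajc11, Dnajc15, Dnajc19 and Dnajc30) had log2 ratios between -0.53 and 0.08 in KO, and the only one above 0 was Dnajc4.

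Hspd1 and Hspe1 lie head to head on chromosome 1, with RefSeq starts (GRCm38.p6) 216 bases apart, and so share a promoter region. It holds a heat shock element, and 30 bases around it are shown because it lies between both of these starts, while the reads of the genes did not keep a fixed ratio. With the GENCODE starts the genes overlap by their first bases, and the element lies within Hspd1. They span positions -95 to -66 from the Hspe1 start, on the + strand, at chr1:55088053-55088082, and the element is in capitals:
Hspe1 and Hspd1: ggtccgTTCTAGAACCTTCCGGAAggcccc
The motif was searched on both strands as GAA, TTC and GAA, or TTC, GAA and TTC, with any 2 bases (NN) between neighbours, and the 2 forms overlap here. It was found in promoter windows (250 bases before to 50 after a start) of 4 of the 61 chaperone genes with a RefSeq window (6.56%: Dnajb6, Hspd1, Hspe1 and Hsph1) and of 0.662% of all 27025 genes with a window (0.603% of all 32851 windows). Genes without a window, among them Hsp90aa1, Hspa8, Hsp90ab1, Hspa9 and Hsf1, were not searched. A match is a description of the letters in the searched windows. In the KO response the genes with a match had log2 ratios of 0.09 (Dnajb6), -0.86 (Hspd1), -0.19 (Hspe1) and -0.06 (Hsph1).

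Most ER chaperones had ratios above 1 in KO against WT under isoproterenol, where 10 of 10 mitochondrial genes had ratios below 1 with TMM scaling and 7 of 10 with total-read scaling. Of all 14301 genes, 7104 had ratios below 1 there with TMM scaling and 3574 with total-read scaling. Ratios above 1 were not particular to the ER genes: the heat-inducible cytosolic list had 9 of 11 there, and 11 of 11 with total-read scaling. Of the 9 ER genes, 1 (Dnajc10) was counted as higher in the KO response and 0 as lower, against backgrounds of 7.09% and 4.22%. The median log2 ratio was 0.12 in the KO response, with 5 ratios above 1 and 4 below, and -0.17 in WT. In KO against WT under isoproterenol 0 of 9 met the rule (4.2% of all genes were higher and 1.8% lower), but 7 had an interval wholly above no change, against 22.8% of all genes, and the median was 0.36. With total-read scaling the medians were 0.31 in the KO response, -0.25 in WT and 0.57 in KO against WT under isoproterenol, beside 0.18, -0.08 and 0.22 for all genes, and 1 gene (Hsp90b1) met the rule in the last, against 7.3% of all genes. Dnajc10 (chr2:80315466-80354043, + strand) was at 47.3, 51.1, 41.9 and 82.3 CPM in WT (saline, then isoproterenol) and KO (saline, then isoproterenol), with the last above the other 3. It was 1.73-fold higher (1.6 to 1.88) under isoproterenol in KO and 1.14-fold higher (1.05 to 1.24) in WT. There were 0.0991 and 0.166 Dnajc10 reads per Hspa5 read in WT saline and WT isoproterenol, and 0.0853 and 0.191 in KO saline and KO isoproterenol, so the ratio was higher with isoproterenol in both genotypes.

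Hspa5 was at 477, 307, 492 and 432 CPM, lowest in the WT isoproterenol library, and 1.29-fold lower (1.26 to 1.33) under isoproterenol in KO. Hsp90b1, the ER Hsp90 also called Grp94, was at 196, 137, 219 and 216 CPM and was also lowest in WT isoproterenol, with log2 ratios of -0.44 in WT and -0.20 in KO. Dnajc3, an ER DnaJ protein also called p58IPK, was at 54.0, 45.4, 48.1 and 68.2 CPM, and Dnajb11, a DnaJ partner of Hspa5 in protein folding, at 48.0, 40.1, 45.3 and 59.7 CPM. Both had their lowest level in WT isoproterenol and their highest in KO isoproterenol. Dnajb9, an ER DnaJ protein that binds the stress sensor Ire1, went another way, with 39.2, 37.2, 44.1 and 37.2 CPM. Summed within each library, the ER genes had 0.565, 0.463, 0.569 and 0.778 reads per read of the mitochondrial genes in the saline and isoproterenol libraries of WT and then of KO. The counting intervals of the isoproterenol libraries (0.454 to 0.473 in WT and 0.763 to 0.794 in KO) did not overlap, and those of the saline libraries did. These intervals cover counting error only, and the lists were chosen with earlier results of these data known. The sums rest largely on a few genes. In WT saline Hspa5 had 12226 of the 23719 ER reads, and Hspa9 and Hspd1 had 19645 and 9883 of the 41944 mitochondrial reads.

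Promoter stretches of Hspa5, Hsp90b1 and Dnajc3 are shown because they hold the ER stress element, a site through which the unfolded protein response acts. All 3 genes were lowest in WT isoproterenol, as were genes with a window but no match, such as Dnajb11, Hspb8 and Hspb1. The stretches are from RefSeq (GRCm38.p6), 5′ to 3′ on the strand of the gene, with the element in capitals. They lie at chr2:34772020-34772049 (+), chr10:86705515-86705664 (-) and chr14:118937782-118937931 (+). With the GENCODE start, chr2:34771970, the Hspa5 stretch lies within the gene.
Hspa5: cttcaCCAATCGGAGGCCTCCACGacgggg
Hsp90b1: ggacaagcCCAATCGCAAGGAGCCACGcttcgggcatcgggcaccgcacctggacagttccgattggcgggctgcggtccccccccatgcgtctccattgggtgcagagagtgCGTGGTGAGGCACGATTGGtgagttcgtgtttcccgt
Dnajc3: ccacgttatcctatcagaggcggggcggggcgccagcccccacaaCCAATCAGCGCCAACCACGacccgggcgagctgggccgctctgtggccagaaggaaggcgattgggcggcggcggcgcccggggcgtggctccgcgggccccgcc
The element was searched on both strands as CCAAT, any 9 bases and CCACG. It was found in these 3 of the 61 matched genes (4.92%) and in 0.137% of all genes with a window (0.119% of windows), and Hsp90b1 held 2 copies. In KO against WT under isoproterenol the log2 ratios of the 3 genes were 0.28 for Hspa5, 0.44 for Hsp90b1 and 0.38 for Dnajc3, and each interval lay above no change. So did those of ER genes with a window but no match, such as Dnajb11 and Dnajc10. Of the 9 ER genes, 7 had such an interval, and the highest ratio was 0.48.

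**Figure D4:**
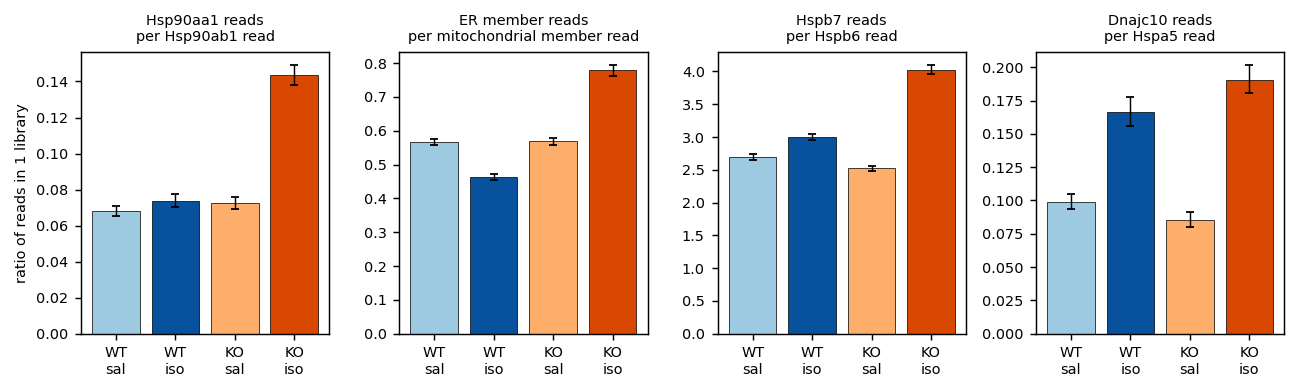
Ratio of reads within 1 library for 4 of the 8 pairs of chaperone genes or lists that were computed, with 1 bar for each library and whiskers for the 95% counting interval. Since both counts come from 1 library, no scaling between libraries enters. The KO isoproterenol library has the highest ratio in the 4 pairs drawn, though not for Hspb7 per Hspa8 or Hspd1 per Hspe1, with 0.143 Hsp90aa1 reads per Hsp90ab1 read, 0.778 ER reads per mitochondrial read, 4.02 Hspb7 reads per Hspb6 read and 0.191 Dnajc10 reads per Hspa5 read.

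Of the remaining DnaJ genes, only Dnajb5 (chr4:42949814-42959425, + strand) met the rule. It was at 90.3, 61.7, 84.1 and 53.4 CPM in WT (saline, then isoproterenol) and KO (saline, then isoproterenol), so that both isoproterenol libraries were below both saline libraries. It was 1.79-fold lower (1.65 to 1.93) in KO and 1.38-fold lower (1.29 to 1.48) in WT, and the KO call was lost with total-read scaling. Across the families, the median log2 ratio in KO was -0.15 for the 4 class A genes, -0.01 for 9 class B genes and -0.11 for 24 class C genes, and each of these turned positive with total-read scaling (0.03, 0.18 and 0.08). With that scaling the median of all genes was 0.18. Dnajc12 had the highest WT ratio among class C genes, at 6.59 and 8.73 CPM (log2 ratio 0.49, interval 0.18 to 0.80). Dnajc8 and Dnajc13 had log2 ratios between -0.02 and 0.13 in both responses.

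**Figure D5:**
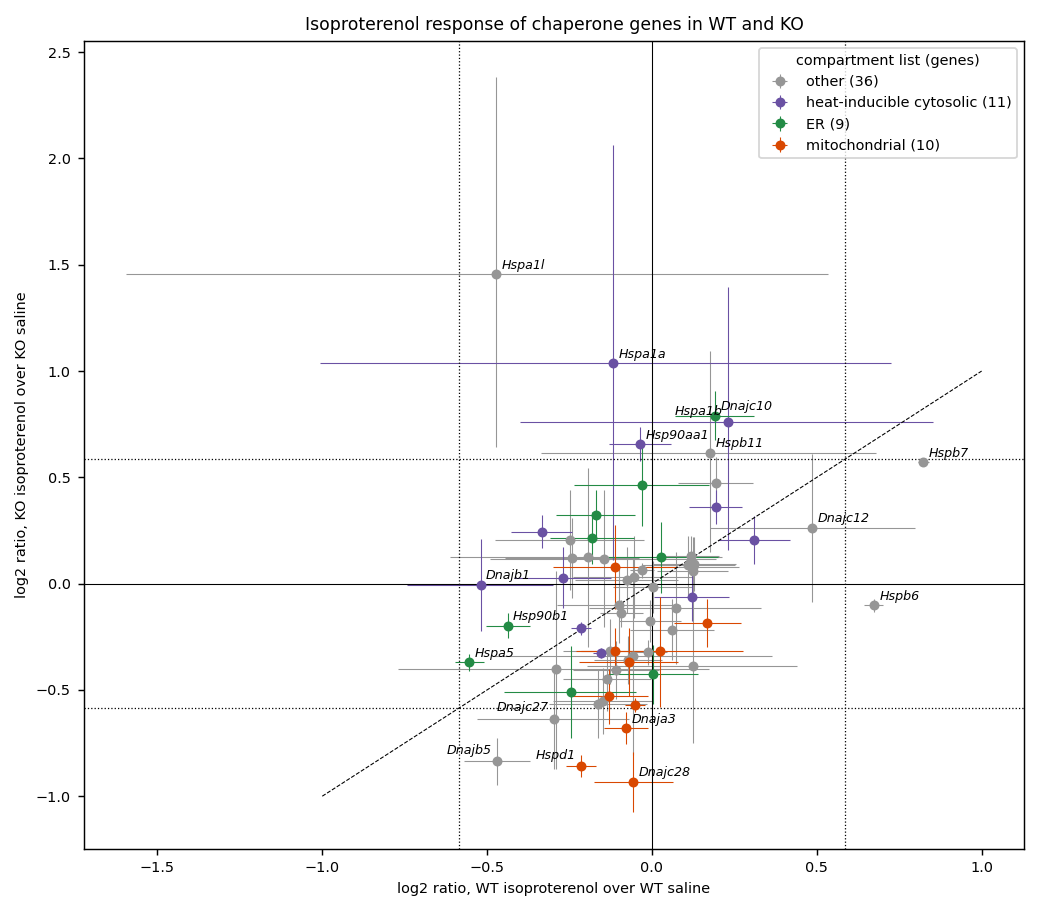
Log2 ratio of isoproterenol over saline in WT (horizontal) and KO (vertical) for the 66 compared genes, with 95% counting intervals, colours for the compartment lists, dotted lines at 1.5-fold and a dashed line where both are equal. Of the 10 mitochondrial genes 9 lie below 0 on the KO axis, Hspb7 lies high on both axes, and Hspb6 is high on the WT axis only.

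Genes that work beside these chaperones were read in the same way. Of 18 other genes of ER folding and the unfolded protein response, 4 were counted as higher in the KO response and 0 as lower, against backgrounds of 7.09% and 4.22%, with a median log2 ratio of 0.46. In WT 0 were counted, with a median of -0.11. In KO against WT under isoproterenol 5 were higher and 1 lower, against 4.2% and 1.8%, with a median of 0.61. Total-read scaling gave 7 higher in the KO response (median 0.64) and 10 higher and 0 lower in KO against WT under isoproterenol (median 0.82), against 10.1%, 7.3% and 0.783% of all genes. The medians of all genes were then 0.18 and 0.22. Serpinh1, the collagen chaperone Hsp47, was at 218, 215, 153 and 422 CPM in the saline and isoproterenol libraries of WT and then of KO, with a log2 ratio of 1.28 (1.22 to 1.34) in KO. The disulfide isomerases Pdia4 and Pdia3 were also counted, at 30.2, 27.7, 29.9 and 57.8 CPM and at 139, 137, 139 and 259 CPM, as was Edem1, which acts in ER degradation. Pdia6 was at 81.6, 57.9, 72.2 and 118 CPM and was counted in KO against WT under isoproterenol (0.81, interval 0.71 to 0.92). Herpud1, of ER-associated degradation, was counted in the other direction there, at 176, 180.5, 155 and 114 CPM (-0.87, interval -0.95 to -0.79).

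Of 12 other genes of mitochondrial folding and import, 1 was counted as lower in the KO response and 0 as higher, against 4.22% and 7.09% of all genes, and the median was -0.21. With total-read scaling 0 were counted, and the median was -0.02 beside 0.18 for all genes. The gene was Clpx, the unfolding subunit of the Clp protease, at 109, 81.0, 111 and 72.7 CPM. Of 20 Hsp70 and Hsp90 cochaperones, 1 was higher and 1 lower in each response, against 0.86% and 0.797% of all genes in WT and 7.09% and 4.22% in KO, and both were immunophilins of the steroid receptor complex. Fkbp5 was at 12.5, 32.9, 10.6 and 30.3 CPM and Fkbp4 at 367, 213, 371 and 146 CPM, so each separated both isoproterenol libraries from both saline libraries, in opposite directions. The 12 subunits of the cytosolic chaperonin TRiC and of prefoldin gave 0 counts in any comparison, where backgrounds in a single direction ran from 0.217% to 7.09%. Of 6 compared genes for other small heat shock proteins and myocyte protein quality control, 2 were higher in the KO response, against 7.09% of all genes: Des, which encodes desmin, at 1743, 1860, 1967 and 4380 CPM, and Flnc, which encodes filamin C, at 383, 498, 444 and 844 CPM.

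Cell type markers differed in the KO isoproterenol library too. In the KO response 3 of 6 cardiomyocyte markers were counted as lower (median log2 ratio -0.39), 3 of 5 fibroblast markers as higher (0.63) and 3 of 6 macrophage markers as higher (0.85), where 4.22% of all genes were lower and 7.09% higher. In WT the counts were 0 of 6, 1 of 5 and 0 of 6, where 0.797% were lower and 0.86% higher. With total-read scaling the KO counts were 1 of 6 cardiomyocyte markers lower (median -0.21, with 3 of 6 ratios above 1), 4 of 5 fibroblast markers higher (0.81) and 3 of 6 macrophage markers higher (1.03), against 2.5% lower and 10.1% higher. The median of all genes was then 0.18. The part of these marker differences in the ratios of the mitochondrial and ER chaperones was not tested.

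An additive fit of treatment and genotype over the 4 libraries (limma with trend on log2 of TMM-scaled CPM + 1, adjusted by Benjamini-Hochberg over 14301 genes) called 0 of 66 chaperone genes for either effect. Across all genes it called 0.00699% (1 gene) for isoproterenol and 0 for genotype. At an unadjusted p under 0.05 there were 7 chaperone genes for isoproterenol and 2 for genotype, beside 14.1% and 2.88% of all genes. The edgeR quasi-likelihood test and DESeq2 on recovered reads also called 0 chaperone genes, among 22 and 176 genes called for isoproterenol and 3 and 13 for genotype. For isoproterenol the lowest adjusted p among them was that of Dnajb5 with limma (0.24) and with edgeR (0.154), with a log2 effect of -0.64 by limma and ratios below 1 in both genotypes. With DESeq2 it was that of Hspb7, 0.0627, with a log2 effect of 0.70, where limma gave an adjusted p of 0.492. For genotype Hspb1 had the lowest unadjusted p, 0.013, with a log2 effect of 0.61 and an adjusted p of 0.996 by limma.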

How the data were processed

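Messenger RNA from mouse heart ventricles was sequenced as 4 libraries, 1 for each group, with a stranded kit per the labels' protocols. The authors deposited CPM per gene. HTSeq was the counting tool and GRCm38.p4 (mm10) the build, per the submitters' processing notes. The aligner, the gene models and the counting options are not stated in the sources used here. The columns headed by the genotype alone were taken as saline. All CPM values were whole multiples of 1 read within 0.01 reads (100%), so reads were recovered.

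Ratios of reads + 0.5 were scaled by TMM (edgeR 4.0.16; factors 0.999, 0.946, 0.966 and 1.096 for the saline and isoproterenol libraries of WT and then of KO) and given exact conditional 95% intervals, for genes averaging 10 or more reads. Differences of responses used a 95% counting interval from the 4 counts. The additive fit used limma 3.58.1 with a pseudocount of 1 CPM and left 1 residual degree of freedom per gene. It was tested on simulated data, and edgeR and DESeq2 1.42.0 on recovered reads were alternatives. No molecular identifiers are stated, and intervals and floors describe counting error alone. The p-values rest on how far genes depart from additive effects over these libraries, which may be technical. The difference of the responses thus counts as error, so genes with unlike responses in WT and KO are called less readily. Exon lengths and overlaps came from GENCODE M21, and promoters from RefSeq for 61 of 77 genes. The members, the lists and the ratios within libraries were chosen with earlier results of these data known. Values in each library were given for genes meeting the rule and for the 10 with the highest level per kb, and for others chosen after their values were seen. Genes outside the family were named, at most 6 a list, where they met the rule in any comparison.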

Additional observations from a re-analysis of the deposited data

Results flagged for a closer look

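In 5 of 66 chaperone genes the isoproterenol responses of WT and KO lay on opposite sides of no change, each with its whole counting interval. The share of all 14301 genes with such opposite intervals was not computed. In WT 2189 of all genes had an interval wholly above no change and 2305 below, and in KO 3888 and 3948. With 1 library in a group, the difference was not tested against spread between hearts. Of the ER genes, Dnajb11 had log2 ratios of -0.18 in WT and 0.22 in KO, a difference of 0.40 (interval 0.22 to 0.57), and Dnajc3 of -0.17 and 0.32, a difference of 0.49 (0.33 to 0.66). Hspb1 had -0.33 in WT and 0.25 in KO, a difference of 0.58 (0.46 to 0.70). Hspb6 had 0.67 and -0.10, a difference of -0.78, and the mitochondrial Hspe1 had 0.17 and -0.19, a difference of -0.35 (-0.50 to -0.20). With total-read scaling 3 of the 5 genes remained on opposite sides, and Hspb6 (0.59 and 0.08) and Hspe1 (0.09 and -0.00) did not.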

How the results depend on the processing

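With 1 library in each group, no library could be left out, and no paired analysis was possible because each group has a single library. Of 15 calls of a chaperone gene in the 5 comparisons, 15 remained with DESeq2 size factors and 9 with total-read scaling, and 0 reversed. Total-read scaling gave 1 higher and 1 lower gene in the WT response, 4 and 2 in the KO response, 0 lower in KO against WT under isoproterenol, and 5 and 0 in the difference of responses. The 6 other were lost: Hspb6 in WT (log2 0.59), Dnaja3 (-0.50) and Dnajb5 (-0.65) in KO, Dnajc28 under isoproterenol (-0.54), and Hspb6 (-0.51) and Dnajc28 (-0.61) in the difference. A mean of at least 100 reads left 1 higher gene in the KO response and 0 in the difference, since Hspa1l has fewer reads. A fold of 2 left 0 genes in either direction in any comparison. Point values of log2(CPM + 1) beyond 1.5-fold, which use no TMM scaling and no interval, gave 1 lower gene in WT, 9 higher in KO, 7 higher and 0 lower in KO against WT under isoproterenol, and 11 higher and 1 lower in the difference. In the additive fit for isoproterenol, dropping the filter on low values called 1 of 76 chaperone genes, beside 319 of all 24267 genes. This gene was Dnajb5 (limma, adjusted p 0.041), whose adjusted p ran from 0.041 to 0.24 over the limma and edgeR settings (the cause was not tested). Depth limits genes such as Hspa1a, Hspa1b and Hspa1l, whose intervals span more than 1.5-fold. Nothing here measures spread between hearts.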
